A study of Mus musculus with 675 samples.

Results

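The cells described here are smooth muscle cells of the mouse aorta with a high level of P2rx1, which encodes the P2X1 receptor. P2X1 is an ATP-gated cation channel: extracellular ATP opens it, sodium and calcium enter, the membrane depolarises, and voltage-gated calcium channels then open. In muscular arteries, the vas deferens and the bladder it carries the fast contraction evoked by ATP that sympathetic or parasympathetic nerves release together with their classical transmitter, and platelets use it as well. The channel desensitises within moments of opening, and ectonucleotidases on the cell surface end the signal by degrading ATP.

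Members were chosen by measured levels, given as CPM, the count of a gene scaled to a total of 1000000 counts per cell. A cell was taken as smooth muscle with at least 1000 CPM of Myh11 (smooth muscle myosin heavy chain), at least 500 CPM of Cnn1 (calponin 1), under 100 CPM of the endothelial cadherin Cdh5, and fewer than 2 of the fibroblast genes Dcn, Lum, Serpinf1 and Pi16 at 100 CPM or more. Of 675 cells, 548 met this rule. Among them 73 (13.3%) had at least 100 CPM of P2rx1 and are called P2rx1-high, 23.4% had a count but less than 100 CPM and are called intermediate, and 63.3% had 0 counts and are called P2rx1-zero. The remaining cells of the 675 lay outside the smooth muscle rule.

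Expression was measured by Smart-seq2, which reads full-length cDNA of single sorted cells and adds no molecular identifiers. The mice were C57BL/6 males, 10 weeks old, with no treatment named in the labels, and the tissue is labelled aorta. Cells stood on 2 plates, each with a pool of 2 mice. Plate aorta_594s held 38 P2rx1-high and 54 intermediate cells, and P2rx1-zero cells were 68.8% of its smooth muscle cells; plate aorta_912s held 35 P2rx1-high and 74 intermediate cells, and P2rx1-zero cells were 56.9%. Both classes of a plate share their mice, and the plate is the replicate (n = 2), so p-values measure the spread between 2 plates only. The protocol, unlike the tissue label, speaks of dissociated heart, and no label describes the sort gate.

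Depth was similar in the 3 classes. The median cell held 301913 counts in P2rx1-high, 304392 in intermediate and 292267 in P2rx1-zero cells of plate aorta_594s, and 342442, 327138 and 324834 on plate aorta_912s. Genes with a count numbered, at the median cell, 5448, 5764 and 5343 on plate aorta_594s and 6226, 6228 and 6226 on plate aorta_912s. Mitochondrially encoded genes took a median of 1.94%, 1.89% and 1.92% of the counts on plate aorta_594s and 1.75%, 1.71% and 1.74% on plate aorta_912s. No column of counts was identical to another. In what follows, paired values are those of plate aorta_594s and plate aorta_912s, in that order.

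Because P2rx1 chose the cells, its level is a description. P2rx1-high cells made up 12.9% of smooth muscle cells on plate aorta_594s (38 cells; exact Clopper-Pearson 95% interval 9.28 to 17.3%) and 13.8% on plate aorta_912s (35 cells; 9.83 to 18.7%). Intervals cover counting error only. The members' P2rx1 level ran from 104.99 to 1655 CPM with quartiles of 246.7 and 414.9 CPM on plate aorta_594s, and from 107.1 to 1025 CPM with quartiles of 159.2 and 471.9 CPM on plate aorta_912s. Between 100 and 200 CPM lay 7 and 13 members on plates aorta_594s and aorta_912s, between 200 and 400 CPM 21 and 12, and above 400 CPM 10 and 10. In reads, the median member had 95 and 77 P2rx1 counts.

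The threshold cut through a thin stretch of the distribution rather than a gap. The lowest members were at 104.99, 108.91 and 110.8 CPM on plate aorta_594s, and the highest cells left out were at 95.09, 92.88 and 85.4 CPM. On plate aorta_912s the lowest members were at 107.1, 111.97 and 128.01 CPM and the highest cells left out at 89.82, 87.01 and 84.58 CPM. Most intermediate cells were far lower: 32 of 54 and 52 of 74 were under 10 CPM, with a median of 2 counts on plate aorta_594s and 1 count on plate aorta_912s. The 73 members held 91.9% of all P2rx1 counts of smooth muscle cells on plate aorta_594s and 89.8% on plate aorta_912s. The highest member held 12.3% of the members' P2rx1 counts on plate aorta_594s and 8.67% on plate aorta_912s. Across members, the rank correlation of P2rx1 CPM with the cell's total counts was -0.117 over 38 cells and -0.052 over 35 cells, where both measures share the total. Members lay in 16 and 15 rows and in 21 and 22 columns of the plates.

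**Figure D1:**
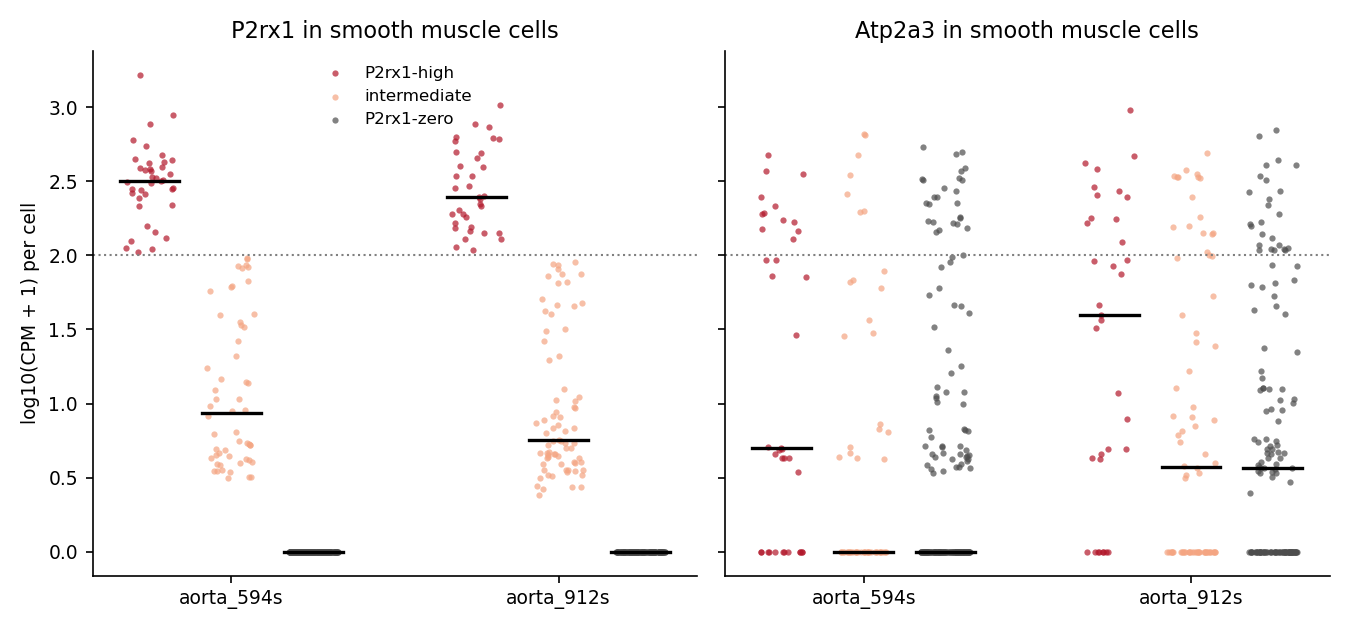
Level of P2rx1 (left) and Atp2a3 (right) in each of the 548 smooth muscle cells, as log10(CPM + 1), for P2rx1-high, intermediate and P2rx1-zero cells of plates aorta_594s and aorta_912s. Each point is 1 cell, black lines are medians, and the dotted line marks 100 CPM; P2rx1 chose the classes, and Atp2a3 had a count in 26 of 38 and 27 of 35 P2rx1-high cells, against 35.96% and 55.6% of P2rx1-zero cells.

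Single P2rx1 reads also occurred in cells of another type. Among cells with 2 or more fibroblast markers, 7 of 46 on plate aorta_594s (15.2%) and 9 of 39 on plate aorta_912s (23.1%) had a P2rx1 count, at a median depth of 159618 and 159529 counts. Of smooth muscle cells 31.2% and 43.1% had one, at a median depth of 294814 and 327302 counts. Thinned to 50000 counts a cell, the shares were 20.3% and 25.7% of smooth muscle cells, against 6.52% and 10.3% of the cells with fibroblast markers. None of these 46 and 39 cells reached 100 CPM, which allows a share of up to 6.52% and 7.69%, taken as 3 cells over their number and not as an exact interval.

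The smooth muscle identity of the members was checked with markers that the rule did not use. Summed over Acta2, Tagln, Myl9, Lmod1, Smtn and Des, the level was 16810 and 15540 CPM in P2rx1-high cells of plates aorta_594s and aorta_912s, against 16930 and 15250 CPM in P2rx1-zero cells. The myosin heavy chain Myh11, which the rule used, stood at 4618 and 3525 CPM in P2rx1-high cells and 4254 and 3393 CPM in P2rx1-zero cells, and Cnn1 at 2405 and 2470 CPM in P2rx1-high cells and 2213 and 2355 CPM in P2rx1-zero cells. Of the excluding genes, Dcn was at 10.8 and 29.9 CPM in P2rx1-high cells against 23.3 and 35.8 CPM in P2rx1-zero cells, and Serpinf1 at 3.40 and 6.93 CPM in P2rx1-high cells against 18.2 and 20.6 CPM in P2rx1-zero cells. Lum, Pi16 and Cdh5 stayed under 5 CPM in both classes on both plates. The 2 fibroblast markers outside the rule summed to 79.1 and 68.6 CPM in P2rx1-high cells, 74.96 and 98.8 CPM in intermediate cells and 119.3 and 117.7 CPM in P2rx1-zero cells. The sum was lower in P2rx1-high than in P2rx1-zero cells on both plates, and lowest in intermediate cells on plate aorta_594s. Col14a1, given with the collagens, made up most of the sums in P2rx1-high and P2rx1-zero cells.

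Platelets carry P2X1 too, and their markers were no higher in the members. The 7 platelet markers summed to 43.3 and 25.6 CPM in P2rx1-high cells, against 60.8 and 30.3 CPM in P2rx1-zero cells. Gp1ba and Treml1 were at 0 in P2rx1-high cells of both plates, and Pf4 was at 0.340 and 0 CPM in P2rx1-high cells, against 5.37 and 1.69 CPM in P2rx1-zero cells. The 8 leukocyte markers summed to 0.170 and 0.501 CPM in P2rx1-high cells, against 6.61 and 0.0634 CPM in P2rx1-zero cells, and the 5 endothelial markers outside the rule to 65.6 and 65.3 CPM in P2rx1-high cells against 94.3 and 43.2 CPM in P2rx1-zero cells. Pericyte markers, several of which smooth muscle also expresses, summed to 1331 and 1012 CPM in P2rx1-high cells, against 1499 and 1128 CPM in P2rx1-zero cells. Of these, Higd1b was at 0 and Vtn at 0.170 and 0.584 CPM in P2rx1-high cells, against 1.70 and 0.993 CPM for Higd1b and 15.97 and 8.24 CPM for Vtn in P2rx1-zero cells.

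No gene passed the main test of P2rx1-high against P2rx1-zero smooth muscle cells. The counts of each class and plate were summed and compared in edgeR with the plate as a block, and 0 of 15456 genes had an adjusted p under 0.05 (0%). The smallest Benjamini-Hochberg adjusted p of the edgeR quasi-likelihood F test was 0.767. At an unadjusted p under 0.05, 2.06% of the genes were higher and 4.32% (668 genes) lower in P2rx1-high cells. The fit had 1 residual degree of freedom, and the P2rx1-high sums of 11752418 and 11978733 counts were smaller than the P2rx1-zero sums of 59929550 and 47314330 counts.

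Other tools gave other counts. On the same 4 sums, DESeq2 called 917 genes (5.93%), 429 higher and 488 lower in P2rx1-high cells. In 27.5% of these genes 1 cell held over 25% of the counts of the higher class. A test in limma on the mean of log2(CPM + 1) over cells, which gives each cell the same weight, called 6 genes (0.0388%): Atp2a3, Axl and Atp1b2 higher and Sfrp2, Pvt1 and Eid2b lower in P2rx1-high cells, with adjusted p = 0.046 each. Axl, a receptor tyrosine kinase for Gas6, was at 529 and 736 CPM in P2rx1-high cells, against 435 and 488 CPM in P2rx1-zero cells. Atp1b2, a beta subunit of the sodium-potassium pump, was at 250.7 and 335.01 CPM in P2rx1-high cells, against 173.5 and 265.5 CPM in P2rx1-zero cells. Sfrp2, a secreted Wnt antagonist, was at 193.9 and 478 CPM in P2rx1-high cells, against 401 and 618 CPM in P2rx1-zero cells. Pvt1, a long non-coding RNA, was at 0 and 0.751 CPM in P2rx1-high cells and 10.4 and 12.7 CPM in P2rx1-zero cells, and Eid2b at 0 and 4.26 CPM in P2rx1-high cells and 13.8 and 17.9 CPM in P2rx1-zero cells. All 6 genes differed in the same direction on both plates, and their edgeR adjusted p was 0.767 or more. Across the 2 plates, the P2rx1-high and P2rx1-zero values overlapped for Atp1b2 and Sfrp2. How often such values overlap over all genes was not counted. In the gene lists that follow, called without a tool means an adjusted p under 0.05 in edgeR, and DESeq2 calls are given where there were any. Over all genes tested, 2.06% were higher and 4.32% lower at an unadjusted edgeR p under 0.05, and DESeq2 called 5.93%. Among the 2157 genes that averaged 100 CPM or more, 7.51% were higher and 2.64% lower at that p. Each list is to be read beside these shares.

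Atp2a3, which encodes SERCA3, a pump that returns calcium from the cytosol to the endoplasmic reticulum, was called higher in P2rx1-high cells by limma and DESeq2 and not by edgeR. It was singled out after its values were seen. Its level was 83.7 and 154.4 CPM in P2rx1-high cells of plates aorta_594s and aorta_912s, 59.6 and 71.4 CPM in intermediate cells, and 36.6 and 46.98 CPM in P2rx1-zero cells. P2rx1-high cells were highest on both plates, and the lowest P2rx1-high value lay above both P2rx1-zero values. How many of all genes do the same was not counted, so this is a description only. The log2 fold change was 1.502 ± 0.25 (SE), with 1.23 on plate aorta_594s and 1.77 on plate aorta_912s. The edgeR test gave p = 0.00144 and adjusted p = 0.767, limma on mean log2 values gave adjusted p = 0.046, and DESeq2 gave adjusted p = 9.1e-09. Under the alternatives run, the log2 fold change ran from 1.23 to 2.03.

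The Atp2a3 difference was not confined to 1 cell, but many members held little of it. The median level was 3.99 and 38.8 CPM in P2rx1-high cells, against 0 and 2.65 CPM in P2rx1-zero cells. A count was present in 68.4% and 77.1% of P2rx1-high cells (95% intervals 51.4 to 82.5% and 59.9 to 89.6%), against 35.96% and 55.6% of P2rx1-zero cells (29.4 to 42.98% and 47.1 to 63.8%). The intervals overlapped on plate aorta_912s. Such intervals treat cells as independent and cover counting error only, so neither overlap nor its absence is a test, here or below. Of intermediate cells 40.7% and 55.4% had a count. With each cell thinned to 50000 counts, the shares were 44.7% (17 cells) and 60% (21 cells) of P2rx1-high cells, against 21.7% and 34.7% of P2rx1-zero cells. At least 100 CPM was reached in 12 of 38 and 12 of 35 P2rx1-high cells (31.6% and 34.3%), 7 of 54 and 17 of 74 intermediate cells (12.96% and 22.97%), and 12.3% and 17.4% of P2rx1-zero cells. For this share the 95% intervals of P2rx1-high and P2rx1-zero cells overlapped on both plates. The highest cell held 13.1% and 29.3% of the members' Atp2a3 counts, and without it the level was 74.5 and 114.6 CPM, still above the P2rx1-zero values of 36.6 and 46.98 CPM with all cells.

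Read from the other side, P2rx1-high cells made up 12 of 44 smooth muscle cells with at least 100 CPM of Atp2a3 on plate aorta_594s (27.3%; interval 14.96 to 42.8%) and 12 of 54 on plate aorta_912s (22.2%; 12.04 to 35.6%). Among smooth muscle cells with 0 Atp2a3 counts they were 6.90% (12 cells; 3.61 to 11.7%) and 7.62% (8 cells; 3.35 to 14.5%). These intervals overlapped on plate aorta_912s. The shares come from the same cells as those above and are no second result. Among members alone, however, the levels of Atp2a3 and P2rx1 did not go together: the rank correlation of Atp2a3 with P2rx1 CPM was 0.043 over 38 cells and -0.085 over 35 cells. The majority of P2rx1-high cells, 26 of 38 and 23 of 35, were below 100 CPM of Atp2a3.

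Atp2a3 (ENSMUSG00000020788) is also the upstream neighbour of P2rx1 (ENSMUSG00000020787). In the GENCODE M21 annotation of GRCm38, Atp2a3 spans 72961169 to 72993044 of chromosome 11 on the plus strand, and P2rx1 spans 72999103 to 73015200 on the same strand, with 6058 bases between the end of the upstream gene and the start of the downstream one. No source used here gives the counting strand, and whether position plays a part in the result was not tested. Both promoters are shown because Atp2a3, the gene next to P2rx1, was higher in cells chosen for P2rx1: the 250 bases before each RefSeq start, GRCm38.p6, plus strand, 5′ to 3′, with GC boxes (GGGCGG on either strand, overlaps included) in capitals.
P2rx1, chr11:72998895-72999144: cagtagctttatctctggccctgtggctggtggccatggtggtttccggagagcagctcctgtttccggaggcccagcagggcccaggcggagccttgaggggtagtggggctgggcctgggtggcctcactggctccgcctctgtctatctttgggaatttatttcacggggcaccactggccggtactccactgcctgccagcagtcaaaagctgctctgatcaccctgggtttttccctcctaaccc
Atp2a3, chr11:72960919-72961168: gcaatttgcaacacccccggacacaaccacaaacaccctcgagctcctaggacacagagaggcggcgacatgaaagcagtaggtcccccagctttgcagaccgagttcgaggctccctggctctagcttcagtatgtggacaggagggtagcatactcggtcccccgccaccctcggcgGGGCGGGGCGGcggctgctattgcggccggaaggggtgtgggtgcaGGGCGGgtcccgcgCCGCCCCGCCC
The Atp2a3 window held 5 GC boxes and 66.8% G or C, and the P2rx1 window 0 GC boxes and 61.2% G or C. A GC box lay in 32.7% of 32851 mouse promoter windows of the same length. Neither window held a CArG box, the site of serum response factor (1.47% of windows), the E-box CANNTG (66.2%) or TATAAA (12.4%), each searched on both strands. These are matches of letters in these windows and nothing more.

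The other genes within 150000 bases of P2rx1, a window chosen after the Atp2a3 values were seen, went different ways. Of 10 genes in the window beside P2rx1 6 were tested, and Atp2a3 was the 1 with an unadjusted p under 0.05, beside 2.06% of all genes higher at that p. Camkk1, a kinase that activates calcium/calmodulin-dependent kinases and starts 3807 bases beyond the end of P2rx1, was at 11.9 and 38.7 CPM in P2rx1-high cells, against 14.9 and 19.2 CPM in P2rx1-zero cells, so that the plates went opposite ways. Ncbp3, a cap-binding protein gene, was at 47.5 and 18.3 CPM in P2rx1-high cells, against 33.5 and 25.7 CPM in P2rx1-zero cells. Zzef1, upstream of Atp2a3, was at 22.8 and 18.95 CPM in P2rx1-high cells, against 29.6 and 20.3 CPM in P2rx1-zero cells. The long non-coding RNA 4732414G09Rik, on the opposite strand 655 bases beyond P2rx1, was at 0.255 and 1.002 CPM in P2rx1-high cells, against 0.768 and 1.29 CPM in P2rx1-zero cells.

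**Figure D2:**
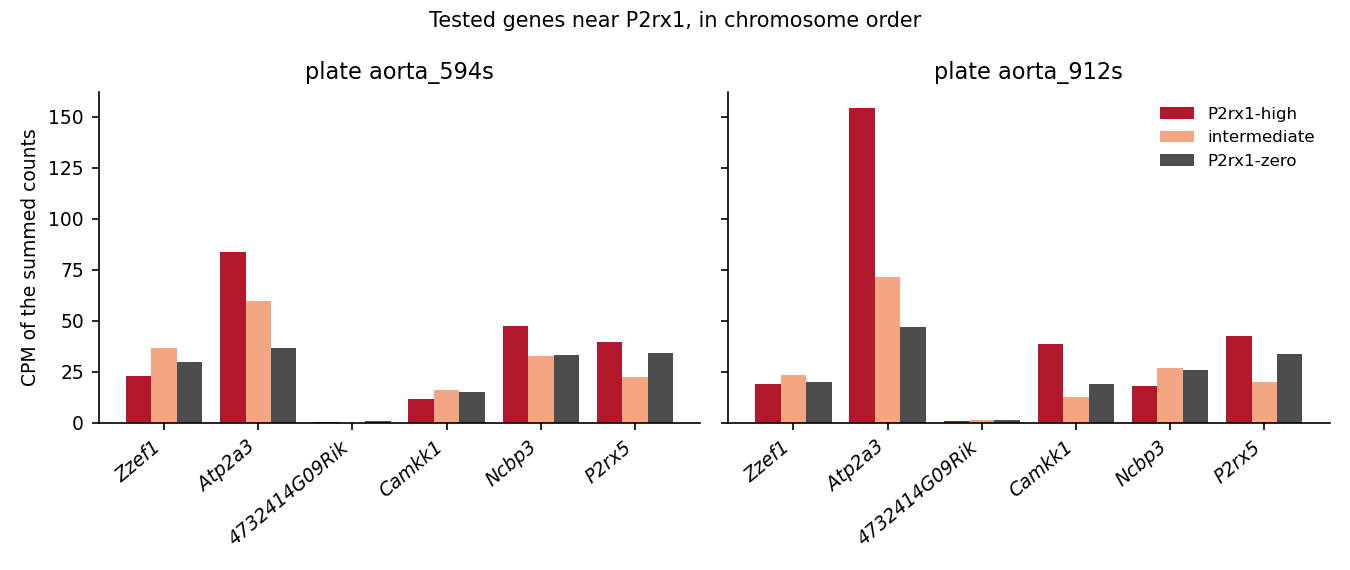
CPM of the summed counts of the 6 tested genes near P2rx1, in chromosome order, in P2rx1-high, intermediate and P2rx1-zero smooth muscle cells of plate aorta_594s (left) and plate aorta_912s (right). Bars are 1 value per class and plate; Atp2a3 is higher in P2rx1-high than in P2rx1-zero cells on both plates (83.7 and 154.4 CPM against 36.6 and 46.98 CPM).

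P2rx5, another P2X gene and the last in that window, was second to P2rx1 among P2X genes by CPM in P2rx1-high cells. It was at 39.4 and 42.7 CPM in P2rx1-high cells, 22.5 and 19.8 CPM in intermediate cells and 34.2 and 33.8 CPM in P2rx1-zero cells, a log2 fold change of 0.32 ± 0.35 with an edgeR adjusted p of 0.998. P2rx4, whose product lies largely in lysosomes and reaches the surface on stimulation, was at 22.97 and 14.5 CPM in P2rx1-high cells, 33.8 and 21.8 CPM in intermediate cells and 24.9 and 21.4 CPM in P2rx1-zero cells. P2rx7, the pore-forming P2X receptor of immune cells, was at 6.72 and 0.501 CPM in P2rx1-high cells and 3.804 and 7.88 CPM in P2rx1-zero cells, P2rx3 and P2rx6 were under 10 CPM in both classes, and P2rx2 had 0 counts. Per kilobase of exon, P2rx1 stood at 139.4 and 127.7 CPM in P2rx1-high cells, P2rx5 at 16.5 and 17.8, and P2rx4 at 3.27 and 2.07. Of 5 P2X genes tested beside P2rx1, 0 were called by edgeR or DESeq2 and 0 had an unadjusted p under 0.05.

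The G protein-coupled receptors of nucleotides and adenosine were called neither by edgeR nor by DESeq2. P2ry2, a receptor for ATP and UTP, was at 37.4 and 56.4 CPM in P2rx1-high cells, against 33.9 and 26.3 CPM in P2rx1-zero cells, with a log2 fold change of 0.67 ± 0.41. P2ry6, a receptor for UDP, was at 43.9 and 18.2 CPM in P2rx1-high cells, against 35.2 and 41.5 CPM in P2rx1-zero cells. The adenosine A1 receptor gene Adora1 was at 14.1 and 15.4 CPM in P2rx1-high cells, against 6.22 and 15.7 CPM in P2rx1-zero cells. Of 4 P2Y and 3 adenosine receptor genes tested, 0 had an unadjusted p under 0.05.

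No enzyme or transporter that ends the ATP signal or carries its products was called by edgeR, and DESeq2 called 2 sparse ones lower. Entpd1, which encodes the ectonucleotidase CD39, was at 351.5 and 807 CPM in P2rx1-high cells, against 348.8 and 722 CPM in P2rx1-zero cells, and its log2 fold change was 0.13 ± 0.08. Slc29a1, the equilibrative nucleoside transporter, was at 288.2 and 369 CPM in P2rx1-high cells, against 353.9 and 318.5 CPM in P2rx1-zero cells. Adk, adenosine kinase, was at 130.1 and 112.3 CPM in P2rx1-high cells, against 132.8 and 149.4 CPM in P2rx1-zero cells, Ank, a gene of pyrophosphate and ATP efflux, at 125.8 and 96.2 CPM in P2rx1-high cells and 141.5 and 94.3 CPM in P2rx1-zero cells, and Lrrc8a, a subunit of volume-regulated anion channels, at 82.5 and 63.9 CPM in P2rx1-high cells and 86.95 and 65.4 CPM in P2rx1-zero cells. Enpp1, which makes pyrophosphate from ATP, was at 55.8 and 32.2 CPM in P2rx1-high cells, against 44.02 and 54.8 CPM in P2rx1-zero cells, and Enpp2, autotaxin, at 24.3 and 30.6 CPM in P2rx1-high cells against 37.9 and 25.6 CPM in P2rx1-zero cells. Entpd2, an ectonucleotidase that favours ATP over ADP, was at 18.9 and 48.8 CPM in P2rx1-high cells, against 39.1 and 43.6 CPM in P2rx1-zero cells, and the alkaline phosphatase gene Alpl at 14.04 and 22.3 CPM in P2rx1-high cells against 15.3 and 36.9 CPM in P2rx1-zero cells. The ecto-5′-nucleotidase gene Nt5e, which makes adenosine, and the ATP release channel gene Panx1 were each below 0.1 CPM in P2rx1-high cells. Of 15 genes tested in this list 0 were called by edgeR. Enpp3 and Slc29a2, both under 20 CPM in every class, were lower at an unadjusted p under 0.05, and these 2 were called lower by DESeq2.

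Calcium handling genes beside Atp2a3 went both ways. Of 27 tested, 2 were higher (Atp2a3 and Atp2b4) and 4 lower (Orai1, Orai2, Cacna1h and Casq2) at an unadjusted p under 0.05, and 0 were called by edgeR. DESeq2 called the same 6 and Slc8a1, 2 higher and 5 lower. Atp2a2, which encodes SERCA2, the main such pump of smooth muscle, was at 658 and 386 CPM in P2rx1-high cells, against 638 and 338.4 CPM in P2rx1-zero cells. Atp2b4, a plasma membrane calcium pump, was at 231.5 and 198.7 CPM in P2rx1-high cells, against 193.5 and 125.04 CPM in P2rx1-zero cells, with a log2 fold change of 0.51 ± 0.16. Orai1, the pore of store-operated calcium entry, was at 7.998 and 10.3 CPM in P2rx1-high cells, against 35.2 and 29.2 CPM in P2rx1-zero cells, with a log2 fold change of -1.78 ± 0.54. Orai2, Cacna1h and Casq2 were below 5 CPM in both classes.

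Receptors of other vasoconstrictors included 1 gene higher at an unadjusted p under 0.05 and above 10 CPM. Adra1d, the alpha-1D adrenoceptor through which noradrenaline contracts the aorta, was at 108.1 and 117.5 CPM in P2rx1-high cells, 59.4 and 55.6 CPM in intermediate cells and 79.7 and 76.1 CPM in P2rx1-zero cells. Its log2 fold change was 0.58 ± 0.20 with an edgeR adjusted p of 0.767, and intermediate cells were lowest on both plates. At least 100 CPM of Adra1d was reached in 34.2% and 45.7% of P2rx1-high cells (intervals 19.6 to 51.4% and 28.8 to 63.4%), against 29.1% and 30.6% of P2rx1-zero cells (22.9 to 35.8% and 23.2 to 38.8%), so that the intervals overlapped on both plates. Npy1r, a receptor of the sympathetic co-transmitter neuropeptide Y, was at 103.6 and 197.8 CPM in P2rx1-high cells, against 142.6 and 227.9 CPM in P2rx1-zero cells. The thromboxane receptor gene Tbxa2r was at 97.1 and 134.1 CPM in P2rx1-high cells, against 147.5 and 121.02 CPM in P2rx1-zero cells. Of 14 tested, 0 were called by edgeR and 1, Adra1d, by DESeq2, and Adra2b, below 2 CPM in both classes, was the 1 gene lower at an unadjusted p under 0.05.

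Genes of potassium and chloride channels and of vasodilator signalling were not called by edgeR. Among the 18 tested members of the potassium and chloride channel list, which does not hold Kcnj15 (given among the lower genes), 0 had an unadjusted p under 0.05 and 0 were called by DESeq2. The highest were Kcnmb1, a subunit of the calcium-activated BK channel, at 515 and 631 CPM in P2rx1-high cells against 518 and 506 CPM in P2rx1-zero cells, Abcc9, a subunit of the ATP-sensitive potassium channel, at 251.8 and 236.5 CPM in P2rx1-high cells against 244.97 and 301.1 CPM in P2rx1-zero cells, and Kcnab1 at 199.2 and 287.2 CPM in P2rx1-high cells against 251.8 and 267.2 CPM in P2rx1-zero cells. Of 18 vasodilator receptor and cGMP genes tested, Gucy1a2 alone had an unadjusted p under 0.05 and was lower at under 10 CPM in both classes, and DESeq2 called it. The calcitonin gene-related peptide co-receptor gene Ramp1 was at 700 and 643 CPM in P2rx1-high cells, against 598 and 646 CPM in P2rx1-zero cells, Gucy1a1 of the nitric oxide receptor at 483 and 439 CPM in P2rx1-high cells against 442 and 488 CPM in P2rx1-zero cells, and Mrvi1 of the cGMP kinase complex at 363.2 and 369 CPM in P2rx1-high cells against 480 and 346.4 CPM in P2rx1-zero cells.

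By normalised sums, contractile apparatus genes, like abundant genes in general, were more often above than below their P2rx1-zero level. All 32 were tested, with 0 called by edgeR and 12 called higher and 0 lower by DESeq2. On both plates 18 were higher and 2 lower, beside 3516 higher and 4458 lower of all 15456 genes tested. At an unadjusted edgeR p under 0.05, 7 were higher and 0 lower. Among these were Tagln, Tpm2, Synpo2, Pdlim7, Csrp1 and Ppp1r14a. The differences were small: Tagln, transgelin, was at 2909 and 2772 CPM in P2rx1-high cells, against 2766 and 2611 CPM in P2rx1-zero cells, and Ppp1r14a, the myosin phosphatase inhibitor CPI-17, at 509 and 678 CPM in P2rx1-high cells against 443 and 610 CPM in P2rx1-zero cells. The median log2 fold change of the list was 0.031, beside -0.073 over all genes tested and 0.041 over the 2157 genes at 100 CPM or more. Acta2, Myl9 and Flna, the 3 highest members, were at 6768 and 5700, 3963 and 3548, and 4081 and 3102 CPM in P2rx1-high cells, against 6757 and 5864, 3965 and 3614, and 3855 and 3106 CPM in P2rx1-zero cells. DESeq2 called all 3 higher, although on plate aorta_912s none of them had a higher CPM in P2rx1-high cells. Myl9 was not higher in CPM on plate aorta_594s either. The log2 differences and the DESeq2 calls use normalised sums, while the CPM given are scaled to totals alone. The edgeR normalisation factors were 0.993 and 0.975 for P2rx1-high sums, against 1.02 and 1.01 for P2rx1-zero sums, which moves every log2 difference upward. Myh11 and Cnn1 helped to choose all smooth muscle cells, and 29 of the 32 genes averaged 100 CPM or more. Among all 2157 genes at that level, 7.51% were higher and 2.64% lower at an unadjusted p under 0.05, so abundant genes in general were also more often higher than lower.

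The list of immediate early and heat shock genes, which respond quickly to stimulation and also to tissue dissociation, had 8 of 26 tested members higher and 1 lower at an unadjusted p under 0.05. Of its members 3 were heat shock genes and none of these was among the 9. edgeR called 0, and DESeq2 called the 8 higher ones, beside 5.93% of all genes. The higher ones were Ier2, Nr4a1, Ccn1, Ccn2, Atf3, Dusp1, Btg2 and Klf6, and the lower one Junb. Of the 26 tested members 15 averaged 100 CPM or more. Among all genes at that level 7.51% were higher and 2.64% lower at an unadjusted p under 0.05. Ccn1, a matricellular target of YAP signalling, was at 1110 and 1230 CPM in P2rx1-high cells, against 717 and 1074 CPM in P2rx1-zero cells. Nr4a1, an orphan nuclear receptor, was at 348.6 and 568 CPM in P2rx1-high cells, against 237.9 and 460 CPM in P2rx1-zero cells. Fos was at 1266 and 748 CPM in P2rx1-high cells, against 1076 and 752 CPM in P2rx1-zero cells, and Junb at 119.8 and 64.9 CPM in P2rx1-high cells against 157.9 and 106.2 CPM in P2rx1-zero cells, so the AP-1 genes went different ways. The median log2 fold change of the whole list was 0.19, with 0.21 on plate aorta_594s and 0.095 on plate aorta_912s, and it was 0.046 on the mean log2 scale.

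Among elastic fibre genes, elastin was above and 3 of its partners were below their P2rx1-zero level. Eln, elastin, was at 3023 and 2138 CPM in P2rx1-high cells, against 2665 and 1961 CPM in P2rx1-zero cells, with a log2 fold change of 0.20 ± 0.04. Fbln5, which tethers elastin to the cell surface, was at 825 and 972 CPM in P2rx1-high cells, against 1006 and 1266 CPM in P2rx1-zero cells. Mfap4 was at 711 and 1127 CPM in P2rx1-high cells, against 884 and 1354 CPM in P2rx1-zero cells, and Fbn1, fibrillin 1, at 241.6 and 265.1 CPM in P2rx1-high cells against 319.01 and 334.4 CPM in P2rx1-zero cells. These 4 of 18 tested genes had an unadjusted p under 0.05, and edgeR called none of them and DESeq2 all 4. The sum of the 2 fibroblast markers outside the rule, most of it Col14a1, was also lower in P2rx1-high cells. It was 79.1 and 68.6 CPM in P2rx1-high cells against 119.3 and 117.7 CPM in P2rx1-zero cells. Whether fibroblast transcripts play a part in these differences was not tested. Ltbp1, a latent TGF-beta binding protein, was at 1151 and 1753 CPM in P2rx1-high cells, against 1238 and 1697 CPM in P2rx1-zero cells.

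Collagens and basement membrane genes included 2 of 25 higher and 1 lower at an unadjusted p under 0.05, with 0 called by edgeR and 5 by DESeq2 (4 higher and 1 lower). Col18a1, a basement membrane collagen, was at 1814 and 1830 CPM in P2rx1-high cells, against 1707 and 1462 CPM in P2rx1-zero cells, and Col4a1 at 811 and 510 CPM in P2rx1-high cells against 677 and 441 CPM in P2rx1-zero cells. Col14a1, a collagen of fibroblasts and 1 of those 2 markers, was at 63.3 and 65.4 CPM in P2rx1-high cells, against 103.9 and 104.8 CPM in P2rx1-zero cells. Col1a2 and Col3a1 stood at 1581 and 1570 CPM and at 1312 and 1005 CPM in P2rx1-high cells, against 1589 and 1542 CPM and 1249 and 939 CPM in P2rx1-zero cells.

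Genes of modulated smooth muscle, the state described in injured and atherosclerotic arteries, were mixed. Of 18 tested, Tnc was higher and Spp1 and Vcam1 lower at an unadjusted p under 0.05, edgeR called 0, and DESeq2 called these 3 and Vim. Tnc, tenascin C, was at 171.1 and 70.4 CPM in P2rx1-high cells, against 93.7 and 48.8 CPM in P2rx1-zero cells. Vcam1, a leukocyte adhesion molecule, was at 4.68 and 9.68 CPM in P2rx1-high cells, 5.89 and 50.1 CPM in intermediate cells and 58.7 and 31.2 CPM in P2rx1-zero cells, and 100 CPM of it was reached in 1 of 38 and 1 of 35 P2rx1-high cells, against 8.87% and 7.64% of P2rx1-zero cells. The most abundant members Vim, Clu and Mgp stood at 4179 and 3788, 1817 and 1890, and 1714 and 1686 CPM in P2rx1-high cells, against 4194 and 3671, 1865 and 1875, and 1895 and 1791 CPM in P2rx1-zero cells.

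Regulators of the contractile state were not called by edgeR. Myocd, the myocardin coactivator of contractile genes, was at 496 and 897 CPM in P2rx1-high cells, against 427 and 842 CPM in P2rx1-zero cells, Osr1 at 373 and 500 CPM in P2rx1-high cells against 405 and 476 CPM in P2rx1-zero cells, and the Notch target Heyl at 352.5 and 464 CPM in P2rx1-high cells against 318.7 and 435 CPM in P2rx1-zero cells. Of 25 such factors tested, Myocd was higher and Gata6 and Hes1 lower at an unadjusted p under 0.05, and DESeq2 called these 3. Of 23 G protein, RhoA and kinase genes tested, Rgs5 and Rock2 were lower at that p, and DESeq2 called Rgs5. Rock2, a kinase that promotes contraction, was at 261.4 and 103.9 CPM in P2rx1-high cells, against 325.9 and 178.6 CPM in P2rx1-zero cells, while Rhoa and Plcb4 stood at 668 and 593 CPM and at 455 and 421 CPM in P2rx1-high cells, against 675 and 583 CPM and 475 and 396 CPM in P2rx1-zero cells. Rock1 was at 473 and 265.8 CPM in P2rx1-high cells, against 550 and 271.8 CPM in P2rx1-zero cells.

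Hox genes, which keep a record of position along the body axis, were measured at low levels. Of 14 tested, Hoxb6 and Hoxa7 were higher and Hoxd4 lower at an unadjusted p under 0.05. edgeR called 0, and DESeq2 called 3 higher, Hoxb6, Hoxa7 and Hoxb7. Hoxb6 was at 102.3 and 28.6 CPM in P2rx1-high cells, 33.3 and 8.75 CPM in intermediate cells and 39.5 and 16.7 CPM in P2rx1-zero cells. Hoxa7 was at 44.1 and 8.60 CPM in P2rx1-high cells, against 15.7 and 0.317 CPM in P2rx1-zero cells, and had a count in 11 of the 73 members. Hoxb2 and Hoxa3 were at 69.8 and 89.3 CPM and at 53.4 and 41.4 CPM in P2rx1-high cells, against 64.2 and 66.2 CPM and 50.3 and 39.04 CPM in P2rx1-zero cells.

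**Figure D3:**
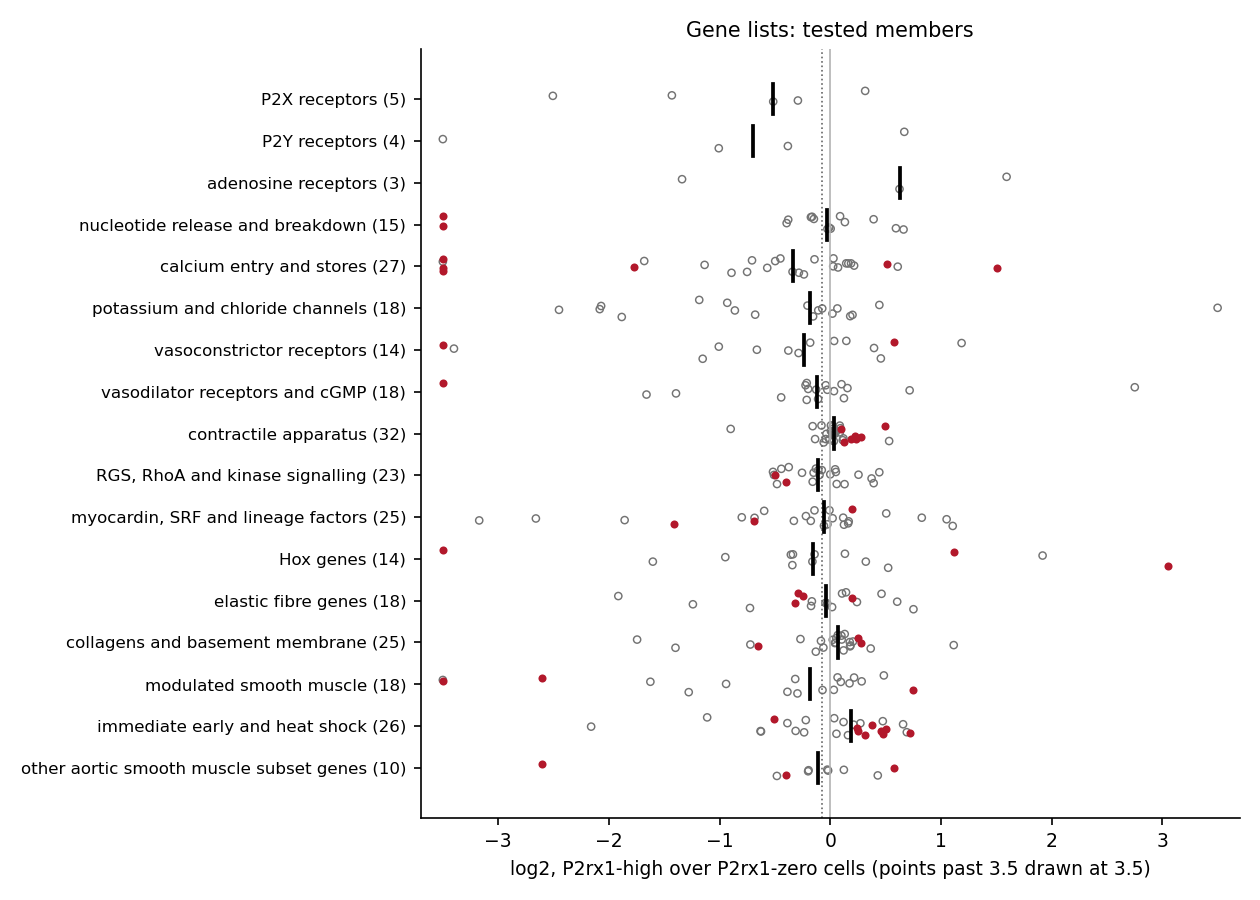
Log2 fold change, P2rx1-high over P2rx1-zero smooth muscle cells, of the tested members of 17 gene lists (number tested in brackets). Each point is 1 gene, filled where the unadjusted edgeR p is under 0.05, black bars are list medians, the dotted line is the median of all genes tested (-0.073), and 13 points past 3.5 are drawn at the end of the axis; no gene had an adjusted p under 0.05.

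Other genes with a patchy pattern in aortic smooth muscle were compared by the number of cells that reached 100 CPM, with no test. Wnt16 reached 100 CPM in 7.90% and 25.7% of P2rx1-high cells, against 18.2% and 22.2% of P2rx1-zero cells. Klhl30 did so in 26.3% and 31.4% of P2rx1-high cells, against 17.7% and 31.9% of P2rx1-zero cells. Tnnt2, cardiac troponin T, did so in 5.26% and 25.7% of P2rx1-high cells, against 6.90% and 19.4% of P2rx1-zero cells, and its share differed more between the plates than between the classes. Rgs5, a regulator of G protein signalling typical of pericytes, did so in 36.8% and 37.1% of P2rx1-high cells, against 40.4% and 44.4% of P2rx1-zero cells.

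Since no gene was called by edgeR, the genes lowest in p are named as a description, not as changes and not as the largest folds. The same sign on both plates was a condition for naming, so agreement between the plates is no result for these genes. They had at least 10 CPM in the higher class on both plates, the same sign on both plates, counts in at least 10 cells, and no cell with over 25% of the counts. Their edgeR adjusted p was 0.767 for all 20, DESeq2 called all 20, and limma on mean log2 values called 1, Atp2a3.

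The 10 higher genes were mostly abundant, with differences below 1 log2 unit except for Atp2a3. Tinagl1, a secreted protein bound to basement membranes, was at 763 and 878 CPM in P2rx1-high cells, 492 and 584 CPM in intermediate cells and 545 and 594.4 CPM in P2rx1-zero cells, a log2 fold change of 0.57 ± 0.07 with p = 0.000388. Bcam, a laminin receptor, was at 1526 and 1785 CPM in P2rx1-high cells, against 1218 and 1512 CPM in P2rx1-zero cells. In both genes the P2rx1-high value was the higher on each plate, which the criteria for naming required. Csrp1, a LIM protein of actin bundles, was at 2520 and 2217 CPM in P2rx1-high cells, against 2186 and 1962 CPM in P2rx1-zero cells. Tns2, a tensin of focal adhesions, was at 369 and 499 CPM in P2rx1-high cells, against 275.6 and 364.5 CPM in P2rx1-zero cells. Tgm2, a transglutaminase that cross-links matrix proteins, was at 972 and 1549 CPM in P2rx1-high cells, against 788 and 1303 CPM in P2rx1-zero cells.

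Secreted proteins were also found among the higher genes. Ccn5, a matricellular protein, was at 336.2 and 341.9 CPM in P2rx1-high cells, against 236.98 and 204.1 CPM in P2rx1-zero cells, with a log2 fold change of 0.67 ± 0.12. Prss23, a secreted serine protease, was at 726 and 739 CPM in P2rx1-high cells, against 521 and 595 CPM in P2rx1-zero cells, and Ccdc3 at 1297 and 1410 CPM in P2rx1-high cells against 1064 and 1189 CPM in P2rx1-zero cells. The immediate early gene Ier2 was at 260.1 and 181.99 CPM in P2rx1-high cells, against 164.3 and 112.5 CPM in P2rx1-zero cells. Intermediate cells did not lie between the other classes in Tinagl1 or Prss23 on either plate: they were lowest, at 492 and 584 CPM for Tinagl1 and 509.6 and 555 CPM for Prss23.

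The 10 lower genes included secreted modifiers of Wnt and heparan sulfate signalling. Frzb, a secreted Wnt antagonist, was at 22.5 and 24.96 CPM in P2rx1-high cells, 103.4 and 64.96 CPM in intermediate cells and 76.5 and 79.1 CPM in P2rx1-zero cells, a log2 fold change of -1.67 ± 0.30 with p = 0.00214. At least 100 CPM of Frzb was reached in 9.59% of P2rx1-high and 21.04% of P2rx1-zero cells. A Frzb count was present in 31.6% and 65.7% of P2rx1-high cells, against 39.4% and 54.2% of P2rx1-zero cells, so that the plates went opposite ways. On mean log2 values the difference of Frzb was -0.70, with a limma adjusted p of 0.773. Gxylt2, a xylosyltransferase that acts on Notch repeats, was at 83.7 and 56.4 CPM in P2rx1-high cells, against 159.6 and 123.05 CPM in P2rx1-zero cells. Sulf2, an extracellular heparan sulfate sulfatase, was at 73.6 and 89.1 CPM in P2rx1-high cells, against 148.99 and 158.5 CPM in P2rx1-zero cells. Levels in P2rx1-high cells were the lowest of the 3 classes for these 3 genes on both plates.

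The remaining lower genes were smaller in fold or sparse. Fmo2, a flavin monooxygenase, was at 545 and 551 CPM in P2rx1-high cells, against 783 and 717 CPM in P2rx1-zero cells, and Tsc22d1, a TGF-beta-induced regulator, at 566 and 514 CPM in P2rx1-high cells against 758 and 650 CPM in P2rx1-zero cells. Rgs5 was at 485 and 217.1 CPM in P2rx1-high cells, against 631 and 307.8 CPM in P2rx1-zero cells. Kcnj15, an inward rectifier potassium channel, was at 49.3 and 90.9 CPM in P2rx1-high cells, against 87.5 and 170.1 CPM in P2rx1-zero cells, and Mrpl4, a protein of the mitochondrial ribosome, at 95.5 and 92.3 CPM in P2rx1-high cells against 151.2 and 174.8 CPM in P2rx1-zero cells. Tcf19 had a count in 7 of 73 members and stood at 0.936 and 0.250 CPM in P2rx1-high cells, against 14.8 and 14.7 CPM in P2rx1-zero cells; with so few members holding a count its fold change is set by single cells.

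**Figure D4:**
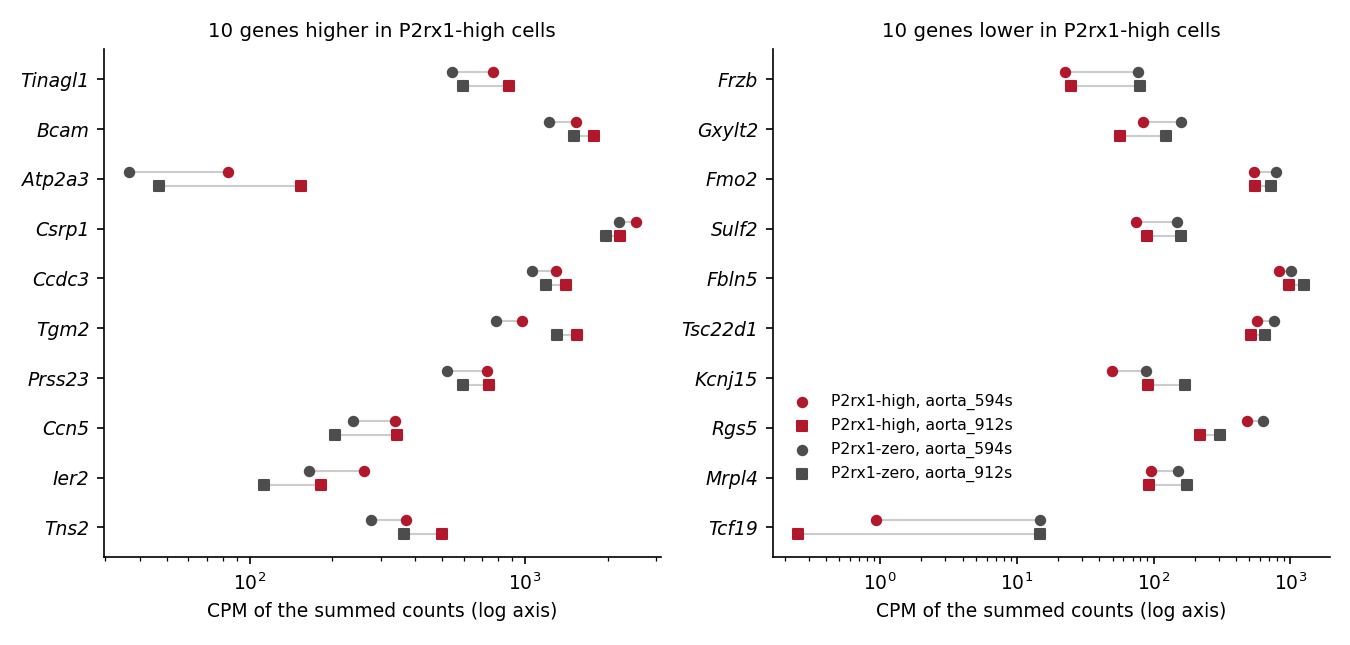
CPM of the summed counts, on a log axis, of the 10 genes lowest in p that were higher (left) and the 10 that were lower (right) in P2rx1-high than in P2rx1-zero smooth muscle cells, with circles for plate aorta_594s and squares for plate aorta_912s. All 20 had an edgeR adjusted p of 0.767; Atp2a3 has the widest gap on the left (83.7 and 154.4 CPM in P2rx1-high cells against 36.6 and 46.98 CPM in P2rx1-zero cells).

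Across genes the differences on the 2 plates were nearly unrelated, with a weak correlation among the most abundant genes. The within-plate log2 differences of P2rx1-high and P2rx1-zero sums correlated with r = 0.124 over all 15456 genes, -0.02 over 9458 genes at 10 CPM or more, 0.133 over 2157 genes at 100 CPM or more and 0.281 over 717 genes at 250 CPM or more, where genes are not independent replicates. The sign was the same on both plates for 51.6%, 51.7%, 56.3% and 60.5% of these genes. At 100 CPM or more, 0 genes differed at least 2-fold in the same direction on both plates, and the median standard error of a log2 fold change was 0.15. At 250 CPM or more, 85 genes (11.9%) were higher and 19 (2.65%) lower in P2rx1-high cells at an unadjusted p under 0.05.

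**Figure D5:**
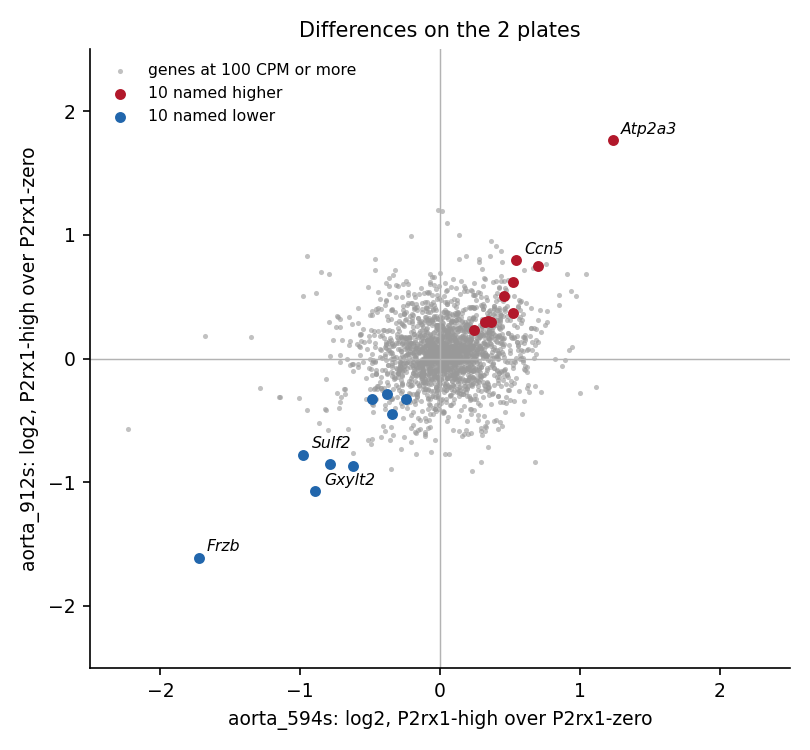
Log2 difference of P2rx1-high over P2rx1-zero smooth muscle cells on plate aorta_594s (horizontal) and plate aorta_912s (vertical) for the 2157 genes at 100 CPM or more (grey), with the 10 named higher and 10 named lower genes in colour. The grey cloud is nearly round (r = 0.133), Atp2a3 lies at 1.23 and 1.77, Frzb lies at -1.73 and -1.61, and Tcf19 and 1 grey gene lie outside the axes.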

How the data were processed

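The authors deposited whole-number counts of 46517 gene identifiers in each cell. The submitters' processing notes name Bowtie, Bowtie2, bcl2fastq, Subread and featureCounts, in no order and without versions, and the build GRCm38 (mm10). Symbols and positions came from GENCODE M21; 512 identifiers without a symbol (0.217% of counts) were kept and 0 columns left out. CPM used each cell's column total. Whole counts of the 4 sums (2 classes by 2 plates) were tested in edgeR 4.0.16 (R 4.3.3) with filterByExpr, TMM, the quasi-likelihood F test and the plate as a block, with Benjamini-Hochberg adjustment over all genes but the 8 of the rule and a threshold of 0.05. The code was tested on simulated data. The pairing comes from the labels: both classes of a plate share their mice, and their differences between plates aorta_594s and aorta_912s correlated with r = 0.345 across 9463 genes. limma 3.58.1 and DESeq2 1.42.0 served as alternatives. Python 3.11.15, numpy 2.4.6, pandas 2.3.3 and scipy 1.17.1 did the rest.

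The members and the gene lists were chosen with earlier results of these data known. Named genes were those of the rule, the 10 higher and 10 lower genes lowest in p that met the criteria given with them because none was called, purinergic genes with 10 CPM or more in a class on both plates, and the 3 highest members of the other lists; some genes are not reported here. No doublet caller was run. Smart-seq2 reads are copies from amplification, so intervals and limits from counts of 0 cover counting error only. Intermediate cells entered no test of the main comparison, only the alternatives that set a P2rx1 threshold of 50 CPM or took all smooth muscle cells below 100 CPM.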

Additional observations from a re-analysis of the deposited data

Results flagged for a closer look

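Outside the smooth muscle rule, 2 cells had 100 CPM or more of P2rx1, a signal in cells that no comparison used. Both stood on plate aorta_594s. The first, with 561.5 CPM of P2rx1, had the mast cell genes Cpa3 at 8707, Mcpt4 at 8926 and Cma1 at 8842 CPM and Myh11 at 90.4 CPM. The second, with 1709 CPM of P2rx1, had the platelet genes Itga2b at 12560, Pf4 at 4660 and Treml1 at 1194 CPM and Myh11 at 97.1 CPM. Atp2a3 was at 0 CPM in the first of these cells and at 1747 CPM in the second, above every smooth muscle cell, where the highest was at 958 CPM.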

How the results depend on the processing

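The count of called genes was 0 in edgeR with every alternative run, which were DESeq2 size factors, no filter on low counts, P2rx1 thresholds of 50 and 200 CPM, all smooth muscle cells below 100 CPM of P2rx1 as comparison, cells thinned to 50000 counts, cells with 200000 counts or more, matched P2rx1-zero cells, and cells with rare markers of other types left out. Without the plate as a block it was also 0. The smallest adjusted p in these fits ran from 0.0946 (thinned cells) to 0.9996 (matched cells). DESeq2 called 917 genes and limma on mean log2 values 6; the cause of the difference was not tested. A fit on 1 plate alone has no residual degree of freedom, so the count has no value there. Leaving out cells with any platelet, leukocyte, endothelial or pericyte marker at 100 CPM left 0 P2rx1-high cells on plate aorta_594s and gave no value, so the version restricted to markers that reach 100 CPM in under 5% of cells was added after the data were seen. The share of P2rx1-high cells on plate aorta_912s was 8.70% at a threshold of 200 CPM. Among values of the named genes under alternatives, 21 became called, 0 turned and the others kept their direction and side of the threshold. With 1 plate left out, the direction of a named gene was fixed by the criteria for naming. Of the list medians under alternatives 57 moved by more than the spread between plates and 33 changed sign, the contractile median to -0.009 without the filter and -0.006 on mean log2 values. With 2 plates and 73 members, genes under about 10 CPM rest on single cells.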
